A study of Mus musculus with 15 samples.

Results

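The glutathione S-transferases (GSTs), UDP-glucuronosyltransferases (UGTs) and cytosolic sulfotransferases (SULTs) were compared between fetal and adult epithelium of the mouse proximal small intestine. They were taken from the RNA-seq count table of sorted cells by gene symbol, as every row whose name began with Gst and a class letter, Mgst, Ugt or Sult, each followed by a number. The rule found 67 of the 24594 rows of the table, namely 22 cytosolic-type GSTs, 3 microsomal GSTs, 21 UGTs and 21 SULTs. Gstk1, which acts in mitochondria, was counted with the cytosolic-type GSTs. The rule used names only and no measured value.

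The study profiled fetal and adult intestinal epithelium, directly and as organoids, and asked in its design how the epithelium matures and what the coactivator YAP does there. The fetal group held 3 libraries of untreated C57Bl/6J cells of the proximal intestine at embryonic stage E16.5, sorted as EpCAM+/DAPI-/CD31-/CD45-. The adult group held 3 libraries of untreated wildtype C57Bl/6J cells, taken from crypts of the proximal 20% of the small intestine by collagenase and sorted as EpCAM+/DAPI-/Lin-/CD24mid. The labels give neither genotype nor library kit for the fetal cells and no age in weeks for the adult mice, and the adult libraries were made with a SMARTer kit (Takara) for small amounts of total RNA. Age, sort gate and tissue fraction changed together, so they cannot be told apart in any value below.

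These enzymes carry out the conjugation step of detoxification. GSTs join the tripeptide glutathione to reactive compounds, UGTs attach a sugar, mostly glucuronic acid from UDP-glucuronic acid, and SULTs attach sulfate from the donor PAPS. The intestine, like the liver, uses them on drugs, plant compounds, bile acids, steroids, thyroid hormone and bilirubin, and the products leave the cell through ABC transporters.

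Total counts were 7888998 to 10538004 per fetal library and 5795518 to 6045113 per adult library, of which the transferase genes took 0.258% to 0.327%. This share counts reads common to the 8 Ugt1a rows, described below, more than once. Epithelial markers were present in both groups, at a sum of 5263 to 5382 CPM (counts relative to the TMM-scaled library size) in fetal libraries, against 7777 to 8230 CPM in adult ones, and none of the 10 was at 0 counts. Enterocyte markers summed to 7531 to 9802 CPM in fetal libraries, against 3835 to 4897 CPM in adult ones, with 9 of 13 higher and 4 lower. Crypt stem and progenitor markers summed to 1607 to 2125 CPM in fetal libraries, against 10161 to 12629 CPM in adult ones, with all 8 lower. Mesenchyme markers summed to 174 to 240.2 CPM in fetal libraries, against 11.8 to 19.8 CPM in adult ones, and pancreatic exocrine markers to 844 to 1852 CPM in fetal libraries, against 3.54 to 5.26 CPM in adult ones. Erythroid markers summed to 31.7 to 55.6 CPM in fetal libraries, against 0.509 to 1.38 CPM in adult ones. The 4 Y-linked genes measured summed to 47.4 to 104 CPM in fetal libraries. These Y-linked genes had 0 counts in the adult libraries, so sex composition changed with age too. These are bulk libraries, in which fewer cells of a type and less RNA per cell cannot be told apart.

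Of the 67 genes, 41 had enough counts to be tested and 26 had not, among them 12 with 0 counts in all 6 libraries. In fetal cells 15 of the 41 were higher, 11 were lower and 15 were not called (edgeR quasi-likelihood test, Benjamini-Hochberg adjusted p under 0.05 over all 13314 tested genes). The same test called 54.9% of all tested genes, 29.0% higher and 25.9% lower, so calls in both directions were common in the whole table and the counts of transferases are read beside those shares. Of the 41 genes, 14 were called with a change of at least 2-fold, beside 23.9% of all tested genes. Of the 41 genes, 27 did not overlap between the groups, beside 62.3% of all tested genes. The median log2 fold change was −0.13 over the 41 genes and 0.01 over all tested genes. The 8 tested Ugt1a genes share most of their reads, as described below. Outside them 15 of 33 genes were higher, 9 were lower and the median was 0.06.

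**Figure D1:**
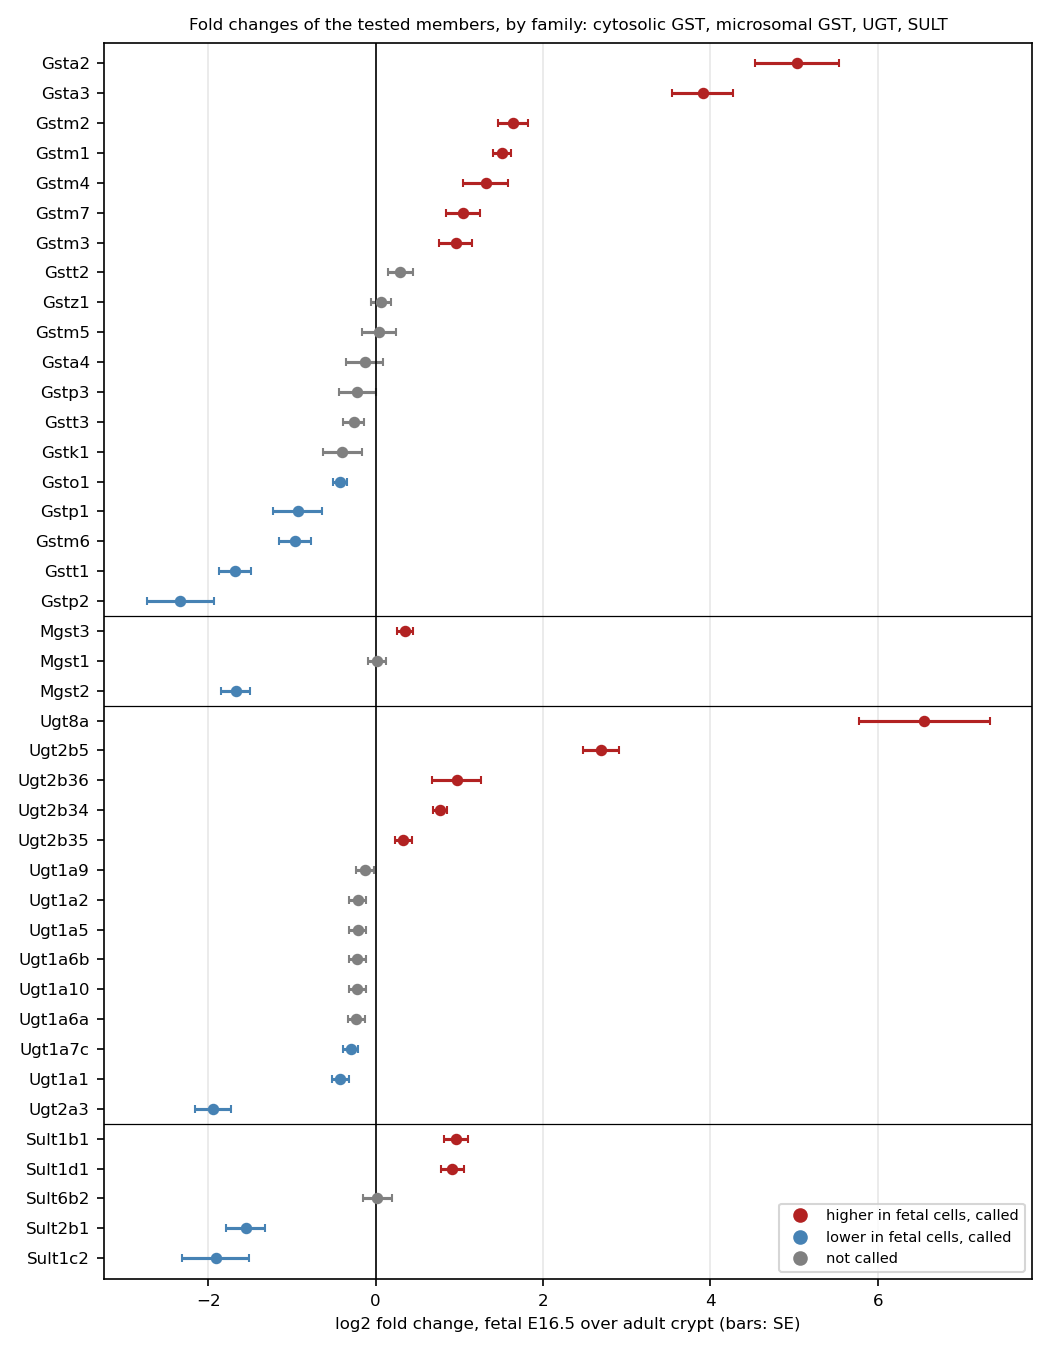
Log2 fold change of each of the 41 tested genes, fetal E16.5 over adult crypt, with its standard error as a bar. Genes are grouped by family and sorted by fold change, and red, blue and grey points are genes higher, lower or not called in fetal cells. Each family has points on both sides of 0.

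The classes of cytosolic-type GSTs moved in different directions. Of the 19 tested, 7 were higher and 5 lower in fetal cells. The higher ones were 2 of 3 tested alpha genes and 5 of 7 mu genes, and the lower ones were 2 of 3 pi genes, 1 of 3 tested theta genes, 1 mu gene and the omega gene Gsto1.

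The promoter of Gsta3, one of the alpha genes highest in fetal relative to adult cells, is shown with those of 4 other genes because it holds sequence cores that regulators of these enzymes are known to bind. Stretches of up to 250 bases before the start were searched on both strands for the antioxidant response element core TGACNNNGC (bound by NRF2), the HNF1 core GTTAAT, the CDX core TTTATG and the xenobiotic response element core GCGTG (bound by the Ah receptor). Capitals mark a match on either strand. Sequences are from RefSeq (GRCm38.p6, the assembly of mm10) and are written in the direction of the gene. Ugt2b5 and Ugt2a3 lie in the same locus and changed in opposite directions, Sult1d1 lies there too, and Ugt1a1 is the best known gene of the Ugt1a locus.
Gsta3, chr1:21240415-21240564, plus strand: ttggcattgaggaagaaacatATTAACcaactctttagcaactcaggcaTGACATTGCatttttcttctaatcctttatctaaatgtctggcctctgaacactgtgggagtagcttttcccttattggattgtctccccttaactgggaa
Ugt2b5, chr5:87140341-87140490, minus strand: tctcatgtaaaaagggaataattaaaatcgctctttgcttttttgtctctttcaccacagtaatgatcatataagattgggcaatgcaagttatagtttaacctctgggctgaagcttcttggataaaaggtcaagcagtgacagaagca
Ugt2a3, chr5:87337196-87337345, minus strand: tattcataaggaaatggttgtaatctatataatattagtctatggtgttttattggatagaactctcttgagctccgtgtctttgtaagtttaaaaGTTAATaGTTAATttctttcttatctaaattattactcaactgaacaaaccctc
Sult1d1, chr5:87569028-87569256, minus strand: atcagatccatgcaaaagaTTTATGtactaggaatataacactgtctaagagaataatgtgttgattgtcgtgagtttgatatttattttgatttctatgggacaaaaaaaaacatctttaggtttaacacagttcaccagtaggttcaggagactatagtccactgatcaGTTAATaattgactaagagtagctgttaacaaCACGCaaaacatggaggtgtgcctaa
Ugt1a1, chr1:88211809-88211958, plus strand: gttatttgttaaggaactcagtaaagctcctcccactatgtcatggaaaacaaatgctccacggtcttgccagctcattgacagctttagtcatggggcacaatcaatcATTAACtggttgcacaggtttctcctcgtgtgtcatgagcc

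Of the 67 genes, 59 had a promoter in the RefSeq table. The HNF1 core stood in 14 of the 59 (23.7%) and in 7.49% of all 27025 genes with a promoter there, searched over the same 250 bases. A gene with several promoters was counted once, with a match in any of them. Its holders included Gsta3, Ugt2a3, with a pair of copies a base apart, Sult1d1, Ugt1a1, Ugt1a6a, Ugt1a9, Ugt1a10 and Sult2a3 to Sult2a6. Several of these are duplicated neighbours and so share their sequence. The antioxidant response element core stood in 4 genes (6.78%, beside 11.5% of all), namely Gsta3, Gstm7, Gstm5 and Mgst1. The CDX core stood in 5 (8.47%, beside 12.4%) and the xenobiotic response element core in 11 (18.6%, beside 30.9%). The Ugt2b5 stretch held none of the 4 cores. A match describes letters only, and whether any core goes with a direction of change was not tested. The xenobiotic response element core stood in 6 of the 15 higher, 2 of the 11 lower and 3 of the 12 uncalled genes that had a promoter. For the CDX core these numbers were 1 of 15, 1 of 11 and 2 of 12. The HNF1 core stood in 2 of the 15 higher, 2 of the 11 lower and 3 of the 12 uncalled genes. Its other holders had too few counts to be tested for a change. The antioxidant core stood in 2 of the 15 higher genes, in 0 of the 11 lower ones and in 2 that were not called.

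The alpha-class genes Gsta2 and Gsta3 were close to absent in adult crypt cells. Alpha GSTs conjugate lipid peroxidation products and bind bilirubin and steroids. Gsta3 (chromosome 1, 21240565 to 21265575) stood at 17.3, 19.1 and 13.8 CPM in fetal libraries 1 to 3 and at 0.177, 1.70 and 1.38 CPM in adult libraries 1 to 3. All fetal libraries lay far above all adult ones. The log2 fold change was 3.91 ± 0.36 (SE, edgeR adjusted p = 1.22e-06). Gsta2 (chromosome 9, 78331018 to 78347192) stood at 5.86, 5.99 and 6.75 CPM in fetal cells, against 0.354, 0.170 and 0 CPM in adult cells. Its 3 adult counts, against 167 fetal counts, give a ratio of 36.1 with an exact 95% counting interval of 12.2 to 177. The fitted log2 fold change of 5.03 ± 0.51 (adjusted p = 2.62e-06) was 5.93 without adult replicate 1. Of the 50-base words of Gsta2, 50.2% occur in no other gene, and 36.0% are shared with Gsta1, so its reads may be divided between them. Gsta1 itself had 23 counts in fetal and 9 in adult libraries, too few to test. Of its 50-base words 9.50% occur in no other gene and 75.7% are shared with Gm3776, so its counts are uncertain.

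Gsta4, the alpha GST that removes 4-hydroxynonenal, did not follow the other alpha genes. It stood at 50.5, 64.4 and 88.1 CPM in fetal libraries 1 to 3 and at 88.6, 88.2 and 46.7 CPM in adult libraries 1 to 3. The groups overlapped fully, and the spread within each was wider than the difference between them. The log2 fold change was −0.13 ± 0.22 (adjusted p = 0.647).

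The mu-class genes lie side by side in a cluster of 149 kb on chromosome 3 (107895854 to 108045179), and 5 of the 7 were higher in fetal cells. Mu GSTs conjugate epoxides and other electrophiles of food and drugs. Gstm1 stood at 73.8, 80.8 and 87.2 CPM in fetal cells, against 27.6, 26.3 and 30.8 CPM in adult cells. No libraries overlapped, and the log2 fold change was 1.52 ± 0.11 (adjusted p = 9.26e-08), or 2.86-fold. Gstm2 stood at 16.7, 18.7 and 16.497 CPM in fetal cells, against 4.95, 5.94 and 5.70 CPM in adult cells. It had the highest fold of the class, a log2 fold change of 1.64 ± 0.18 (adjusted p = 5.89e-06). Gstm3 stood at 66.6, 69.2 and 98.0 CPM in fetal cells, against 55.0, 34.4 and 31.6 CPM in adult cells. Its fetal replicate 3 and adult replicate 1 were the highest of their groups, and the log2 fold change was 0.96 ± 0.19 (adjusted p = 0.00102).

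The other mu genes were at lower levels. Gstm4 stood at 11.7, 14.3 and 14.5 CPM in fetal cells, against 8.48, 4.07 and 3.80 CPM in adult cells. Adult replicate 1 was about double the other adult libraries but still below every fetal one, and the log2 fold change was 1.32 ± 0.27 (adjusted p = 0.00107). Gstm7 stood at 12.8, 15.6 and 14.3 CPM in fetal cells, against 5.83, 6.11 and 8.82 CPM in adult cells, with no overlap and a log2 fold change of 1.04 ± 0.20 (adjusted p = 7.67e-04). Gstm6, between Gstm7 and Gstm3 in the cluster, went the other way. It averaged 5.74 ± 0.335 CPM in fetal cells, against 11.2 ± 1.05 CPM in adult cells (SD, n = 3 each), a log2 fold change of −0.96 ± 0.19 (adjusted p = 9.72e-04). Gstm5, at the edge of the cluster, averaged 7.81 ± 0.283 CPM in fetal cells, against 7.61 ± 0.870 CPM in adult cells and was not called.

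The class as a whole summed to 217 ± 25.1 CPM in fetal cells, against 105 ± 12.4 CPM in adult cells. Parts of the mu genes are alike, and of their 50-base words 71.2% in Gstm3, 81.1% in Gstm1 and 90.6% to 100% in the others occur in no other gene. The mesenchyme markers were higher in fetal cells too, all 13 tested of 14. They summed to 230, 240 and 174 CPM in fetal libraries 1 to 3, where the mu class summed to 195, 212 and 245 CPM. The part of these markers in the result was not tested.

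**Figure D2:**
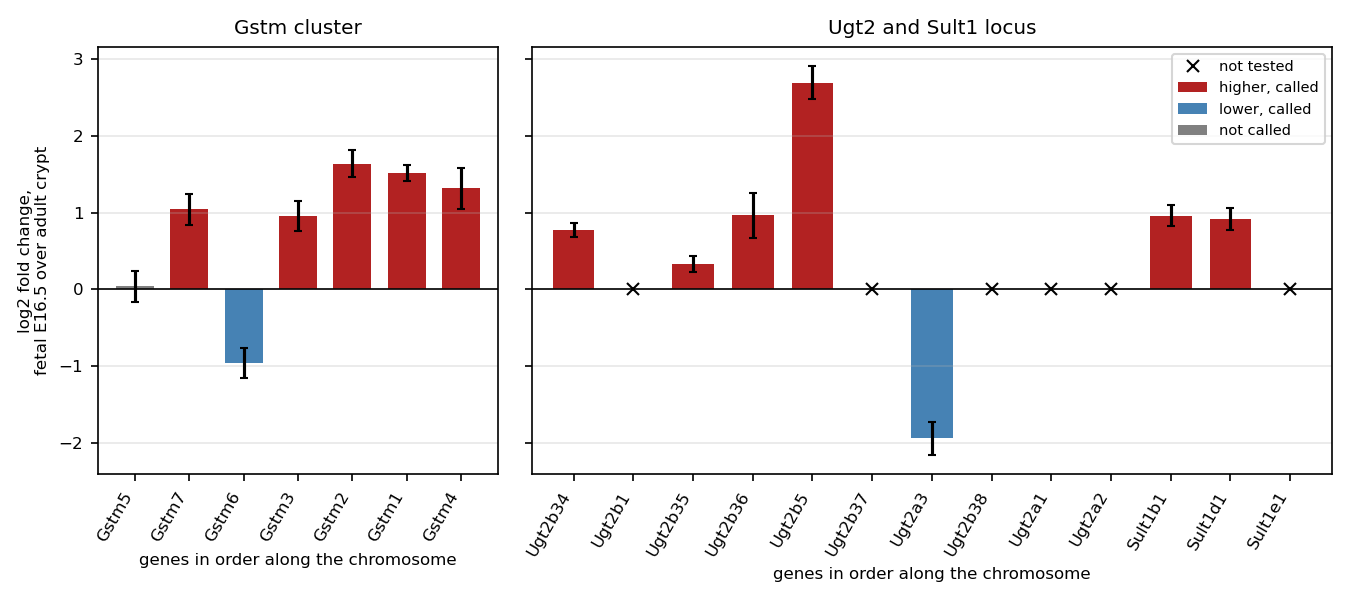
Log2 fold change (bars, fetal E16.5 over adult crypt, with SE) of neighbouring transferase genes, in their order along the Gstm cluster of chromosome 3 (left) and the Ugt2 and Sult1 locus of chromosome 5 (right). Red and blue bars are higher and lower in fetal cells, grey is not called and crosses are genes that were not tested. Gstm6 and Ugt2a3 are the bars below 0. Gstm6 lies between genes that were higher, and Ugt2a3 lies between genes that were not tested.

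Pi, theta and omega GSTs were lower or did not pass the test. Gstt1, a theta GST that acts on small halogenated compounds, stood at 4.12, 4.37 and 3.94 CPM in fetal cells, against 13.1, 13.4 and 13.3 CPM in adult cells. Replicates agreed closely in both groups, and Gstt1 was lower, with a log2 change of −1.68 ± 0.19 (adjusted p = 9.11e-06). Its neighbour Gstt3 stood at 43.3, 42.9 and 47.0 CPM in fetal cells, against 50.2, 45.6 and 63.8 CPM in adult cells. The groups overlapped and Gstt3 was not called (log2 fold change −0.26 ± 0.12, adjusted p = 0.0940), but it was lower without adult replicate 2 (−0.37, adjusted p = 0.0283). Gstt2 averaged 22.3 ± 0.757 CPM in fetal cells, against 18.1 ± 3.32 CPM in adult cells and was not called either.

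Gsto1, which reduces dehydroascorbate, stood at 203, 206 and 221 CPM in fetal cells, against 267, 275 and 305 CPM in adult cells. All adult libraries were higher, and the log2 fold change of Gsto1 was −0.43 ± 0.08 (adjusted p = 7.84e-04). Of the pi genes, Gstp2 averaged 0.666 ± 0.144 CPM in fetal cells, against 3.46 ± 1.11 CPM in adult cells, with a log2 fold change of −2.33 ± 0.40 (adjusted p = 2.86e-04). Gstp1 averaged 3.14 ± 0.622 CPM in fetal cells, against 5.94 ± 1.45 CPM in adult cells, at −0.93 ± 0.29 (adjusted p = 0.0147). The Gstp1 call was lost without fetal replicate 3 or adult replicate 3 (adjusted p = 0.0700 and 0.0720). A share of 45.7% of the 50-base words of Gstp2 and 66.3% of those of Gstp1 occur in no other gene, so their counts are uncertain against each other. Gstp3, Gstz1, an isomerase of tyrosine breakdown, and Gstk1 were not called.

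The microsomal GSTs, membrane enzymes that act on lipid peroxides, gave a different outcome for each gene. Mgst1 stood at 119.6, 132 and 129 CPM in fetal cells, against 115, 114 and 148 CPM in adult cells. The groups overlapped and Mgst1 was not called (log2 fold change 0.01 ± 0.11, adjusted p = 0.924). Mgst2, which can make leukotriene C4, stood at 7.36, 7.98 and 11.4 CPM in fetal cells, against 28.5, 26.8 and 31.3 CPM in adult cells. Every fetal library was well below every adult one, and Mgst2 was lower, with a log2 change of −1.67 ± 0.18 (adjusted p = 4.08e-06). Mgst3 stood at 55.4, 55.0 and 50.9 CPM in fetal cells, against 43.3, 40.4 and 42.4 CPM in adult cells. The groups did not overlap and Mgst3 was higher, with a log2 change of 0.35 ± 0.10 (adjusted p = 0.00703).

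**Figure D3:**
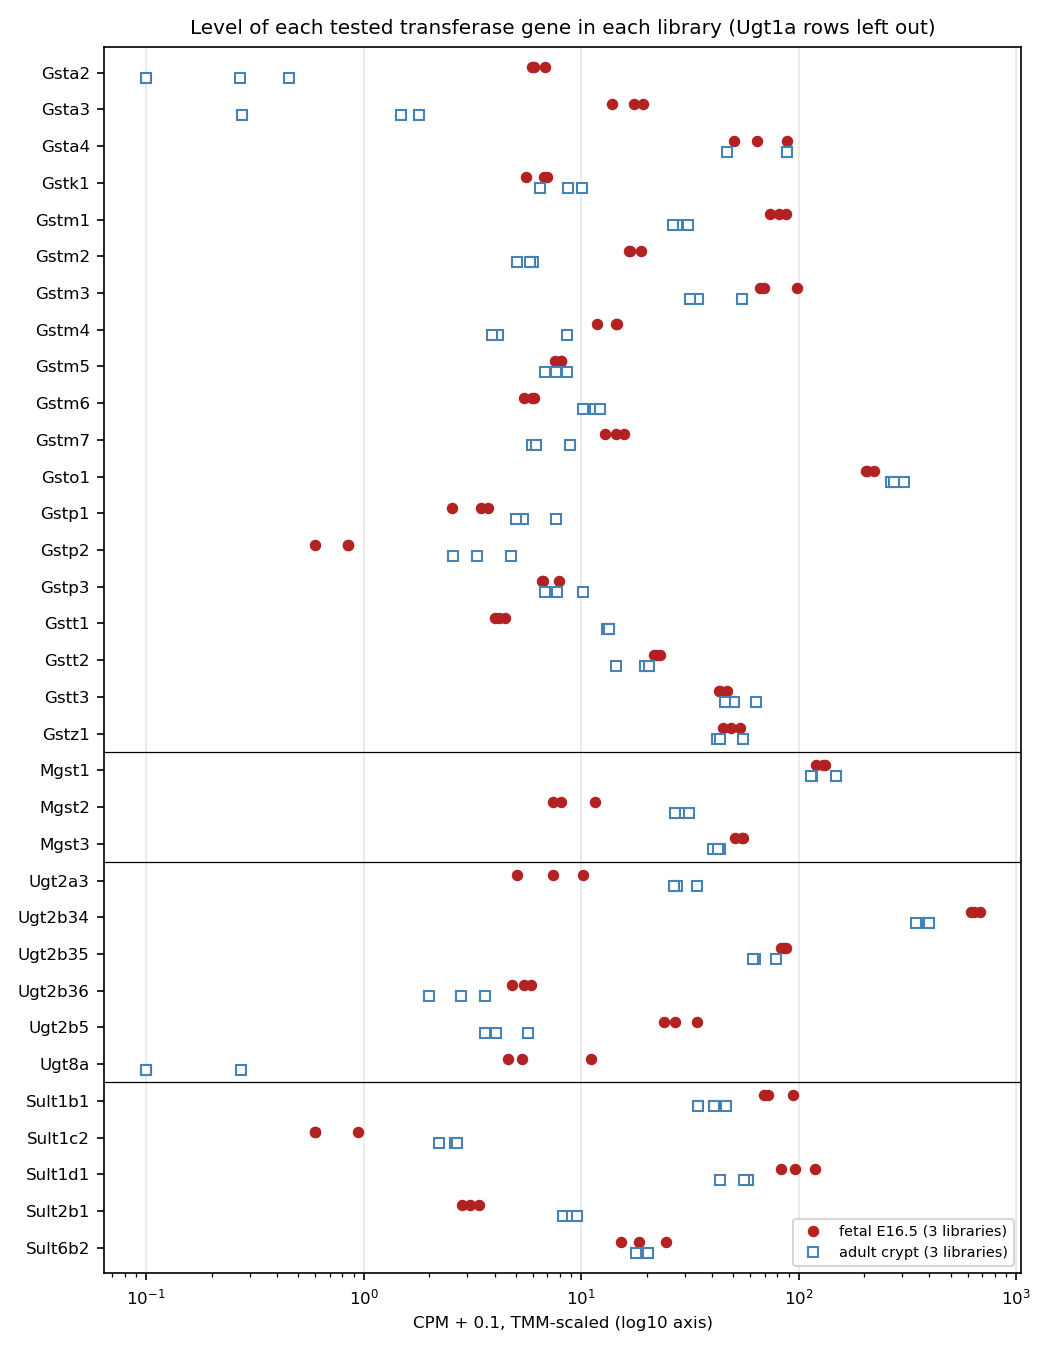
CPM plus 0.1 on a log10 axis of each tested gene outside the Ugt1a locus in each of the 3 fetal libraries (filled red circles) and the 3 adult libraries (open blue squares). Families are separated by lines. Gsta2, Gsta3, Ugt8a and Ugt2b5 have fetal points far to the right of the adult ones, and Gsta4, Gstz1, Mgst1 and Sult6b2 have mixed points.

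Outside the Ugt1a locus, 5 of the 6 tested UGTs were higher in fetal epithelium and 1 was lower. Of the Ugt2b genes, whose products conjugate steroids, bile acids and drugs, all 4 that could be tested were higher, and 3 (Ugt2b1, Ugt2b37 and Ugt2b38) had 1 to 11 counts over the 6 libraries. Ugt2b34 stood at 624, 638 and 681 CPM in fetal cells, against 395, 347 and 396 CPM in adult cells. No libraries overlapped, and Ugt2b34 was higher, with a log2 change of 0.77 ± 0.09 (adjusted p = 7.40e-06). Ugt2b35 stood at 85.6, 87.1 and 83.3 CPM in fetal cells, against 62.8, 61.9 and 78.7 CPM in adult cells. Its adult replicate 3 came close to the fetal libraries, and the log2 fold change was 0.33 ± 0.10 (adjusted p = 0.0152). The call was lost without adult replicate 1 or 2 (adjusted p = 0.0684 and 0.0738).

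Ugt2b5 had the highest fold of the Ugt2 genes. It stood at 26.8, 23.9 and 34.1 CPM in fetal cells, against 3.54, 5.60 and 3.98 CPM in adult cells. The lowest fetal library was above the highest adult one several times over, and the log2 fold change was 2.69 ± 0.21 (adjusted p = 2.71e-07), or 6.46-fold. Of its 50-base words 58.3% occur in no other gene and 34.8% are shared with Ugt2b38, which had 4 fetal and 7 adult counts. Ugt2b36 averaged 5.30 ± 0.539 CPM in fetal cells, against 2.72 ± 0.817 CPM in adult cells and was higher too (0.97 ± 0.29, adjusted p = 0.0132). Ugt2b5 and its relatives are best known from liver. Of 12 hepatocyte markers 3 could be tested, 1 higher and 1 lower. They summed to 28.7 to 39.9 CPM in fetal libraries, against 7.61 to 9.37 CPM in adult ones, and most of the fetal sum was Serpina1b. Of the others, F2 averaged 1.60 CPM in fetal cells, against 0.633 CPM in adult cells, and Itih1, Fgb and Serpina1a averaged 0.583, 0.520 and 0.447 CPM in fetal cells, with 0 counts in every adult library. Cyp2e1 had 0 counts in fetal cells and averaged 3.62 CPM in adult cells, and Ahsg and Hpx had 0 counts in all 6 libraries. Alb averaged 0.593 CPM in fetal cells, against 0.692 CPM in adult cells, and Apoh, not called, 1.74 against 2.44 CPM. Tdo2 averaged 0.208 CPM in fetal cells, against 0.291 CPM in adult cells, and Fgg 0.0831 against 0.0566 CPM. The part of these markers in the Ugt2b values was not tested.

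Ugt2a3, whose human counterpart conjugates bile acids, was the UGT lower in fetal cells outside the Ugt1a locus. It stood at 4.99, 7.36 and 10.1 CPM in fetal cells, against 33.9, 27.7 and 26.6 CPM in adult cells. All fetal libraries were below all adult ones, and Ugt2a3 was lower, with a log2 change of −1.95 ± 0.22 (adjusted p = 6.13e-06). It lies in a locus of 13 transferase genes over 702 kb on chromosome 5 (86889770 to 87591611), which also holds the Ugt2b genes, Sult1b1 and Sult1d1. Of the 7 genes tested there, 6 were higher and Ugt2a3 was lower. Enterocyte markers were 9 higher and 4 lower of 13, crypt markers 8 lower of 8, and their part in the changes of this locus was not tested.

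Ugt8a, which makes galactosylceramide with UDP-galactose, stood apart from the other UGTs in fold. It stood at 4.49, 5.24 and 10.97 CPM in fetal cells, against 0, 0 and 0.173 CPM in adult cells. Fetal replicate 3 was about double the other fetal libraries. The 195 fetal counts against 1 adult count give a ratio of 127 with an exact 95% counting interval of 22.5 to 5025. The fitted log2 fold change of 6.56 ± 0.78 (adjusted p = 1.19e-05) was 8.76 without adult replicate 3. Gastric markers were also highest in fetal replicate 3, at 8.73, 10.1 and 58.6 CPM in fetal libraries 1 to 3 and 10.8 to 14.7 CPM in adult libraries, and their part in the level of Ugt8a was not tested. Of the gastric markers, Muc5ac, Sox2, Gkn1, Gkn2 and Vsig1 had 0 counts in the adult libraries. Of the 5 tested, 3 were higher, and Gkn3 was lower, at 0.562 CPM in fetal cells, against 9.34 CPM in adult cells (log2 fold change −3.94). Neuron and glia markers summed to 48.0, 68.7 and 54.2 CPM in fetal libraries 1 to 3, against 5.01 to 6.11 CPM in adult libraries. Of these 7 markers 4 could be tested and all 4 were higher, and most of the fetal sum was Ret. The part of the neuron and glia markers in the level of Ugt8a was not tested either.

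The 8 Ugt1a genes on chromosome 1 have a first exon each and share the rest. In the GENCODE M21 annotation every pair shares at least 1311 exonic bases, and Ugt1a6a and Ugt1a7c share 2170. Relative to the lowest row, Ugt1a10, the deposited counts of Ugt1a2, Ugt1a5 and Ugt1a6b were at 101%, those of Ugt1a9 at 106% and those of Ugt1a6a at 111%, while Ugt1a1 and Ugt1a7c were further above. Since the rows share exons, they are not 8 separate measurements. Ugt1a10 stood at 101, 113 and 133 CPM in fetal cells, against 132, 134 and 138 CPM in adult cells. Fetal replicate 3 reached the adult level and fetal replicates 1 and 2 did not, and the log2 fold change of −0.22 ± 0.10 was not called (adjusted p = 0.0849). Without fetal replicate 3, Ugt1a10, Ugt1a2, Ugt1a5, Ugt1a6a and Ugt1a6b were lower, with log2 fold changes of −0.32 to −0.34 (adjusted p = 0.0118 to 0.0152).

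Ugt1a1, the enzyme that conjugates bilirubin, and Ugt1a7c had counts well above the other rows of the locus, at 127% and 208% of the lowest row. The Ugt1a7c row is longer, with 4217 exonic bases against 2244 in Ugt1a10. Per kb of exon Ugt1a7c stood at 55.8 ± 6.08 CPM in fetal cells, against 68.6 ± 2.83 CPM in adult cells. Ugt1a10 stood close to it, at 51.6 ± 7.19 CPM per kb in fetal cells, against 60.1 ± 1.47 CPM per kb in adult cells. Ugt1a1 stood at 122, 132 and 161 CPM in fetal cells, against 184, 183 and 191 CPM in adult cells. The groups did not overlap and Ugt1a1 was lower (−0.42 ± 0.10, adjusted p = 0.00322). Ugt1a7c stood at 215, 227 and 264 CPM in fetal cells, against 280.0, 286 and 303 CPM in adult cells. It was lower too (−0.30 ± 0.09, adjusted p = 0.0140), but the call was lost without fetal replicate 1 or 2 (adjusted p = 0.0759 and 0.0657). The other Ugt1a rows with larger counts stood between, with Ugt1a6a at 110.3, 126 and 149 CPM in fetal cells, against 146, 152 and 154 CPM in adult cells.

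The part of a row above the lowest row comes from bases that the row does not share with all others. For Ugt1a1 this part was 20.8, 19.1 and 28.0 CPM in fetal cells, against 52.1, 49.2 and 52.0 CPM in adult cells. All fetal libraries were well below all adult ones. For Ugt1a9 it was 6.86, 9.60 and 13.1 CPM in fetal cells, against 3.18, 1.53 and 3.11 CPM in adult cells, so here the fetal libraries were the higher ones. The Ugt1a7c part averaged 119 ± 10.0 CPM in fetal cells, against 155 ± 8.66 CPM in adult cells, and that of Ugt1a6a 12.7 ± 3.20 CPM in fetal cells, against 15.9 ± 2.36 CPM in adult cells. Ugt1a7c holds 90.7% of the exonic bases of Ugt1a6a, so reads of Ugt1a6a may count in the Ugt1a7c part. In an exact two-sided permutation test over 3 against 3 libraries, whose smallest possible p is 0.1, Ugt1a1, Ugt1a7c and Ugt1a9 gave p = 0.1 each and Ugt1a6a gave p = 0.2 (0.133 and 0.2 after Benjamini-Hochberg adjustment over the 4). This comparison was chosen after the values were seen and cannot pass the threshold at this number of libraries.

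**Figure D4:**
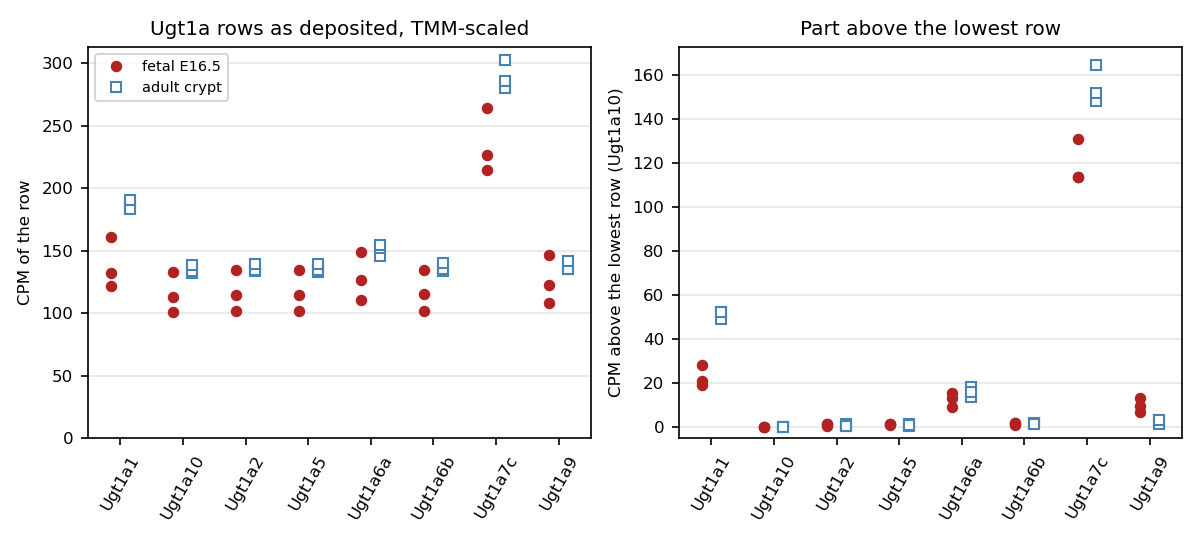
CPM of the 8 Ugt1a rows as deposited (left) and the part of each row above the lowest row, Ugt1a10 (right), in the 3 fetal (filled red circles) and 3 adult libraries (open blue squares). At left 5 rows lie at nearly the same height. At right Ugt1a1 and Ugt1a7c have lower fetal than adult points and Ugt1a9 has higher ones.

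Of the 21 SULTs 5 could be tested, 2 higher and 2 lower. Sult1d1, which sulfates catecholamines, stood at 83.0, 95.8 and 118 CPM in fetal cells, against 58.5, 43.3 and 56.0 CPM in adult cells. All fetal libraries were above all adult ones, and Sult1d1 was higher, with a log2 change of 0.92 ± 0.14 (adjusted p = 1.12e-04). Sult1b1, which sulfates phenols and thyroid hormone, stood at 72.2, 69.1 and 93.8 CPM in fetal cells, against 46.1, 40.7 and 34.2 CPM in adult cells. It had a like difference, at 0.96 ± 0.14 (adjusted p = 6.28e-05), and both genes were highest in fetal replicate 3 and adult replicate 1.

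Sult2b1, which sulfates cholesterol and related sterols, stood at 2.99, 2.74 and 3.28 CPM in fetal cells, against 8.13, 8.99 and 9.51 CPM in adult cells. The groups were far apart relative to their spread, and Sult2b1 was lower, with a log2 change of −1.55 ± 0.23 (adjusted p = 9.08e-05). Sult1c2 averaged 0.614 ± 0.199 CPM in fetal cells, against 2.42 ± 0.260 CPM in adult cells and was lower as well (−1.91 ± 0.40, adjusted p = 0.00132). Sult6b2 averaged 19.3 ± 4.70 CPM in fetal cells, against 19.2 ± 1.24 CPM in adult cells and was not called. Sult4a1, known from brain, had 34 fetal counts and 3 adult counts, too few for the test, a ratio of 7.36 with a counting interval of 2.31 to 37.4. Sult1a1 had 21 fetal and 9 adult counts and Sult6b1 had 20 fetal and 8 adult counts.

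Several transferases known from liver were not detected at this depth. Sult1e1, which sulfates estrogens, Sult2a1 and Sult2a3 to Sult2a8, which sulfate hydroxysteroids and bile acids, Sult1c1, Sult3a1, Sult3a2 and Ugt3a1 had 0 counts in all 6 libraries. Sult2a2, Ugt2a1, Ugt2a2, Ugt2b37 and Ugt3a2 had 1 count each in a fetal library and 0 in the adult ones. Sult5a1 had 4 fetal counts and no adult one, Gsto2 had 16 fetal and 8 adult counts, and Gstt4 had 1 fetal count and 3 adult counts. A count of 0 allows up to 3 counts in a library of this size, so low levels of these genes would not have been seen.

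Per length of exon, with the Ugt1a locus represented by its lowest row, Ugt1a10, the same 4 genes led in both groups. Gsto1 had the highest level, at 178 ± 8.25 CPM per kb in fetal cells, against 239 ± 17.0 CPM per kb in adult cells. Ugt2b34 came next, at 150.2 ± 6.89 CPM per kb in fetal cells, against 88.0 ± 6.57 CPM per kb in adult cells. Gsta4 at 69.3 ± 19.5 and Mgst1 at 69.1 ± 3.45 CPM per kb in fetal cells, and at 76.2 ± 24.7 and 68.5 ± 10.6 CPM per kb in adult cells, followed and did not differ from each other beyond their spread. The Ugt1a1 row stood at 62.2 ± 9.12 CPM per kb in fetal cells, below the means of both, and at 83.6 ± 1.78 CPM per kb in adult cells, above the means of both, so with that row for the locus the order differs. Below these genes the order changed. Mgst2 ranked 15 in fetal and 6 in adult cells, Gstm1 ranked 6 in fetal and 12 in adult cells, and Ugt2b5 ranked 14 in fetal and 29 in adult cells, out of 60 genes with the Ugt1a locus counted once. On the CPM scale, with the Ugt1a locus counted once, the 60 summed to 1946 ± 146 in fetal cells, against 1562 ± 69.9 in adult cells. The Ugt2 genes made up 774 ± 35.8 CPM of this in fetal cells, against 484 ± 34.7 CPM in adult cells, and the SULTs 203 ± 35.8 CPM in fetal cells, against 125 ± 9.56 CPM in adult cells.

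The libraries of a group were not alike in these genes. Fetal replicate 3 was the highest fetal library for 21 of the 33 genes outside the Ugt1a locus (63.6%), beside 35.4% of all tested genes. Adult replicate 3 was the highest adult library for 17 of the 33 (51.5%), beside 34.1%. Fetal replicate 3 also had the highest enterocyte marker sum, at 7531, 9387 and 9802 CPM in fetal libraries 1 to 3, while adult replicate 3 had the lowest adult sum, at 4897, 4646 and 3835 CPM in adult libraries 1 to 3. Whether this bears on the transferases was not tested.

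The genes around the transferases were described by lists, with the same edgeR calls and with log2 fold changes ± SE in parentheses. Of 14 tested genes of glutathione synthesis and recycling 3 were higher and 2 lower (median log2 fold change 0.14, beside 0.01 over all genes). Gclc and Gclm, the subunits of the rate-limiting enzyme, and Gss were not called. Ggt1, which breaks down glutathione outside the cell, averaged 76.9 ± 4.02 CPM in fetal cells, against 24.4 ± 4.04 CPM in adult cells and was higher (1.65 ± 0.12). Anpep, a peptidase acting after it, was higher as well (0.79 ± 0.10), and Gsr, which regenerates glutathione, was lower (−0.45 ± 0.09). The calls of the other 2 genes depended on single libraries. Dpep1, a dipeptidase, was lower (−0.92 ± 0.28), and the call was lost without fetal replicate 1 or 2. Slc7a11, a cystine transporter, was higher (1.49 ± 0.46), and the call was lost without fetal replicate 2 or adult replicate 1. The list counted 3 higher and 1 lower without fetal replicate 1, and 2 higher and 1 lower without fetal replicate 2.

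All 6 glutathione peroxidases were called, 4 higher and 2 lower (median 1.46). Gpx2, the gastrointestinal form, averaged 37.3 ± 4.85 CPM in fetal cells, against 273 ± 39.7 CPM in adult cells and was lower (−2.87 ± 0.13). Gpx1 was lower too (−0.63 ± 0.11), and the secreted Gpx3 was higher, at 71.3 ± 9.51 CPM in fetal cells, against 18.7 ± 6.32 CPM in adult cells (1.94 ± 0.19). Gpx8 had 65, 60 and 65 counts in fetal libraries and 0 in the adult ones. The Gpx4 call was lost without fetal replicate 2 or 3 or adult replicate 2 or 3, and with DESeq2, no filter or the replicate block. Of 11 other glutathione-using relatives 4 were higher and 2 lower (median 0.11), led by the chloride channel relative Clic5 at 392 ± 37.2 CPM in fetal cells, against 99.0 ± 19.0 CPM in adult cells (1.99 ± 0.13). The list counted 1 lower gene and not 2 with DESeq2, with no filter, with the replicate block, and without fetal replicate 2 or 3 or adult replicate 1 or 2. Ltc4s, which makes leukotriene C4 (−1.11 ± 0.42), lost its call with DESeq2, no filter, the block or any adult library left out, and Glo1, which removes methylglyoxal with glutathione (0.30 ± 0.10), without fetal replicate 2 or 3 or adult replicate 1 or 2.

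The genes of UDP-glucuronic acid supply and glucuronide cleavage were mostly higher or not called. Of 6 genes 3 were higher and 1 lower (median 0.37). Ugdh, which makes UDP-glucuronic acid, averaged 153 ± 17.8 CPM in fetal cells, against 72.7 ± 10.7 CPM in adult cells (1.08 ± 0.12). Ugp2, which makes its precursor UDP-glucose, was higher (0.52 ± 0.09), and so was Gusb, which cleaves glucuronides in lysosomes (1.21 ± 0.10). Slc35b1, a transporter of the endoplasmic reticulum, was lower (−0.70 ± 0.15).

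The SULT donor PAPS is made by 2 synthases, which changed in opposite directions. Papss1 averaged 152 ± 4.80 CPM in fetal cells, against 58.9 ± 2.74 CPM in adult cells and was higher (1.37 ± 0.08, adjusted p = 2.41e-08). Papss2 averaged 56.0 ± 7.63 CPM in fetal cells, against 249.8 ± 54.6 CPM in adult cells and was lower (−2.15 ± 0.15, adjusted p = 7.22e-08). No libraries of either gene overlapped. Of the sulfate transporters in the list, Slc13a1 (−4.12 ± 0.23) and Slc26a6 (−1.48 ± 0.12) were lower. Slc26a1 (2.75 ± 0.25) and Slc26a3 (0.56 ± 0.19) were higher, and Slc26a2 was not called. The Slc26a3 call was lost without fetal replicate 3 or adult replicate 2 or 3. In all, of the 13 genes of PAPS supply and sulfate removal 6 were higher and 4 lower (median 0.01). Of 18 sulfotransferases of carbohydrates and tyrosine 9 were higher and 4 lower (median 0.26), with Chst2 at 6.18 ± 0.43 and Chst4 at −2.08 ± 0.19. Goblet cell markers, whose mucins carry sulfate, were 7 lower of 8, at 4835 to 7356 CPM in fetal libraries, against 17690.2 to 33222 CPM in adult ones, and their part in these values was not tested. Chst2 stood at 42.5, 79.3 and 45.6 CPM in fetal libraries 1 to 3, against 1.06, 1.19 and 0 CPM in adult ones. Pancreatic exocrine markers summed to 866, 1852 and 844 CPM in fetal libraries 1 to 3, and their part in the level of Chst2 was not tested.

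Transporters that move conjugates were split as well. Of 11 genes 5 were higher and 4 lower (median 0.26). Abcc2, which exports conjugates into the gut lumen, averaged 188 ± 26.4 CPM in fetal cells, against 76.1 ± 13.0 CPM in adult cells and was higher (1.31 ± 0.13). Abcc3, which exports them towards the blood, averaged 8.12 ± 4.66 CPM in fetal cells, against 141 ± 23.3 CPM in adult cells and was lower (−4.06 ± 0.26, and −4.68 without fetal replicate 3). The uptake transporter Slco2b1 averaged 1.04 ± 0.313 CPM in fetal cells, against 127 ± 1.30 CPM in adult cells, at −6.94 ± 0.16.

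Known regulators of the transferases were also called in both directions. Of 18 genes of the NRF2 axis 6 were higher and 9 lower (median −0.22). Keap1, which holds NRF2 in check, was lower (−0.56 ± 0.08), and the NRF2 targets Me1 (2.71 ± 0.22) and Nqo1 (−0.70 ± 0.16) differed in opposite directions. Nfe2l2, the gene of NRF2, was lower (−0.35 ± 0.10, adjusted p = 0.0112), a call lost without fetal replicate 2 or adult replicate 1. Among the other called genes of this list, Abcc1, G6pdx, Taldo1, Txnrd1, Tkt and Srxn1 were lower. Hmox1, Slc7a11, Mafg, Maff and Bach1 were higher. The call of Srxn1 was lost without fetal replicate 1 or 2 or adult replicate 2, and that of Tkt without fetal replicate 3. Of 12 xenobiotic receptors and intestinal factors 3 were higher and 3 lower (median 0.05). The bile acid receptor Nr1h4 was higher (1.44 ± 0.11) and Hnf4a lower (−1.06 ± 0.09), and the drug receptors Nr1i2, Nr1i3 and Ahr were not called.

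Of 15 other conjugation and detoxification enzymes 6 were higher and 4 lower (median −0.13). Akr1c19, an aldo-keto reductase, averaged 237 ± 20.2 CPM in fetal cells, against 23.9 ± 3.48 CPM in adult cells (3.31 ± 0.12). Ephx1, the microsomal epoxide hydrolase, averaged 3.26 ± 0.127 CPM in fetal cells, against 22.8 ± 2.88 CPM in adult cells and was lower (−2.80 ± 0.19).

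**Figure D5:**
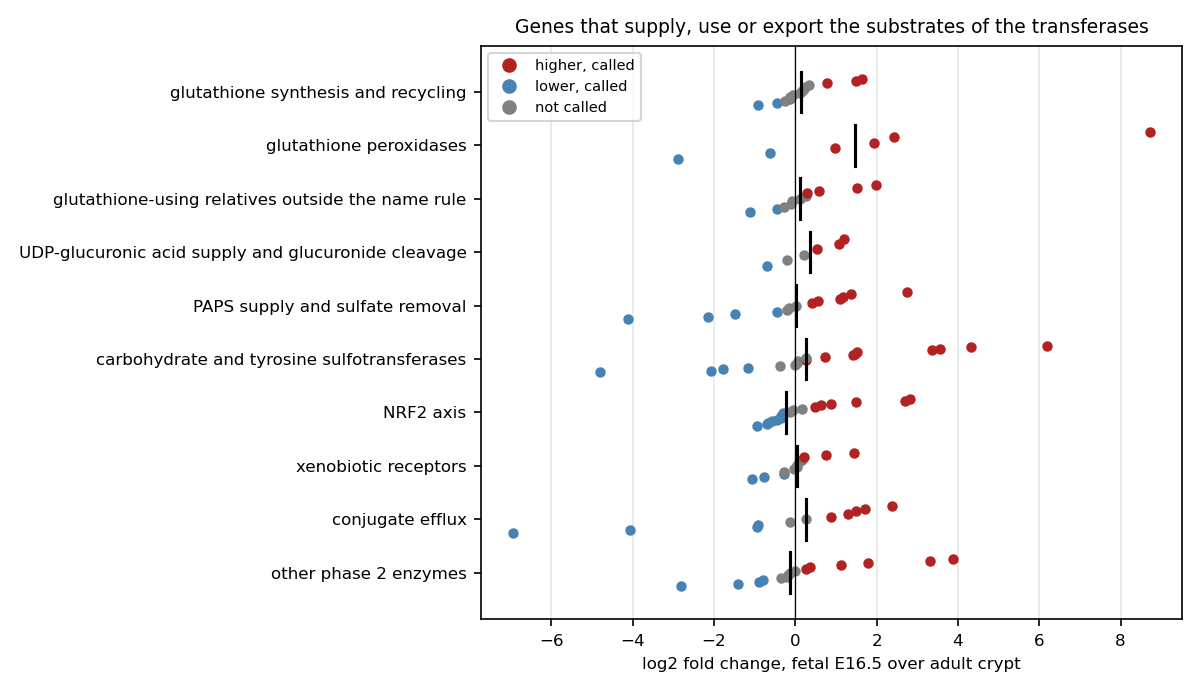
Log2 fold change, fetal E16.5 over adult crypt, of the tested genes of 10 lists that surround the transferases. Each point is a gene, red, blue or grey for higher, lower or not called in fetal cells and spread vertically for legibility only, and the black bar is the median of its list. Every list has called genes on both sides of 0, and the fitted values at the far right include genes with 0 adult counts, such as Gpx8.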

How the data were processed

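The analysed table holds whole-number gene counts of 6 libraries, which the authors deposited without normalization, as read from the values. Per the submitters' processing notes the build is mm10 and edgeR was used. No source used here names the aligner, the counter, the annotation or the strand setting. A second deposited table, of 9 organoid libraries, has no gene identifiers and was not used here.

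The test was edgeR's quasi-likelihood F test (version 4.0.16, R 4.3.3) on TMM-normalized counts, with filterByExpr by group and group means as the only terms. CPM are scaled by the TMM-adjusted library size. The SE is the size of the log2 fold change divided by the square root of F, an approximation. Alternatives were RLE, library size only, DESeq2 1.42.0, no filter, a mean of at least 1 CPM, no Rn45s (7.32% to 10.7% of counts), Ugt1a summed to 1 row, a replicate block and each library left out. Keeping only the lowest Ugt1a row, the Y-linked list and the settings for context genes and lists were added after seeing the data.

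Replicate libraries were not duplicates of each other (chi-square per degree of freedom 4.83 to 9.44). Since no label names separate animals, p-values reflect only how far these libraries vary, in part perhaps technically. Counting intervals cover counting error only. Coordinates are from RefSeq (GRCm38.p6). Exon lengths and 50-base words are from GENCODE M21 (mm10), which held all 67 genes.

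Members and lists were chosen with earlier results of these data known. Values per library are given for members called with an absolute log2 fold change of at least 1 and at least 5 CPM in a group, and for members of at least 50 CPM in a group. Ugt1a is an exception, with its near-equal rows given once. From each list up to 4 called genes with the smallest p could be named, plus uncalled genes. Gpx4, Slc7a11, Glo1, Ltc4s, Slc26a1, Slc26a3, Nfe2l2, Nqo1, G6pdx, Taldo1, Txnrd1, Tkt, Srxn1, Hmox1, Maff and Bach1 were named outside this rule, after their values were seen.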

Additional observations from a re-analysis of the deposited data

How the results depend on the processing

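All genes called numbered 7304, and 6397 to 7261 with a library left out. Transferases higher in fetal cells numbered 15, and 14 to 15 with a library left out. Transferases lower numbered 11, and 10 to 15 with a library left out, the 15 without fetal replicate 3, where Ugt1a genes passed. The transferases' median was −0.13, and −0.24 to 0.05 with a library left out. It was 0.059 with no filter on low counts, where the 55 transferases tested included more genes with few counts and the median of all tested genes was 0.13. DESeq2 called 6738 genes, and 15 transferases higher and 11 lower. With the replicate block 6886 genes were called and the transferase counts were again 15 and 11. Same-numbered libraries did not deviate together from their group means (r = −0.063, −0.035 and −0.087), so no pairing by number was seen. With means of only 3 libraries, this check cannot exclude a shared preparation. With the Ugt1a rows summed, or kept as the lowest row, 15 of 34 were higher and 9 lower. Over all alternatives 576 of 600 values of single transferases kept their direction and their side of the threshold, 6 lost the call, 6 gained it and 12 changed sign, and 27 of 41 had no such change. The 12 were uncalled in every case. Sult6b2 (0.02) ran from −0.19 to 0.17 with a library left out, below 0 without fetal or adult replicate 3, and was at −0.0037 with the replicate block. Gsta4 (−0.13) ran from −0.38 to 0.049, above 0 without fetal replicate 1 or adult replicate 1 or 2. Gstz1 (0.06) ran from −0.015 to 0.20 and Mgst1 (0.01) from −0.058 to 0.15, both below 0 without fetal replicate 2 or adult replicate 1 and Mgst1 also without adult replicate 2. Gstm5 (0.04) ran from −0.040 to 0.12, below 0 without adult replicate 3. Causes were not tested. Genes with few counts, such as Gsta2, Ugt8a and Sult4a1, have wide counting intervals, and 26 transferases were too low to test.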
